A study of Mus musculus with 6 samples.

Results

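mt-Ts1, mt-Td and mt-Tk are the mitochondrial genes of a serine, the aspartate and the lysine tRNA. They were chosen by their place on the mitochondrial chromosome (chrM), where they flank mt-Co2, which encodes a subunit of cytochrome c oxidase, and they are 3 of its 22 tRNA genes and 3 of its 37 genes. Small RNA had been sequenced from pancreatic islets, where the pancreas makes insulin and other hormones, in Mrpp3WT mice (wild type, 3 libraries) and Mrpp3N434S mice (mutant, 3 libraries). All of the mice were on a high-fat diet for 14 weeks, 3 mice per genotype were used according to the design text, and neither age nor strain is given in the labels used here. The series asks how the coverage by small RNA and the mismatches at tRNA position 9 compare between the genotypes. What follows rests on counts of each base read at each chrM position (GRCm38), on the strand of each tRNA.

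Mitochondrial DNA is copied into long precursor RNAs in which tRNAs stand between the mRNAs and rRNAs, and cutting the tRNAs out also frees their neighbours. In mitochondrial RNase P the cutting subunit is MRPP3, which acts at the 5′ end of each tRNA, and ELAC2 cuts at the 3′ end. MRPP1, in the same complex, methylates an adenosine or guanosine at position 9, a mark at which reverse transcription may stop or put in another base. The aspartate and lysine tRNAs lie on the forward strand, mt-Td directly before mt-Co2 and mt-Tk between mt-Co2 and mt-Atp8, which encodes a subunit of ATP synthase. The serine tRNA is read from the reverse strand. Its 3′ end overlaps the end of mt-Co1, and its 5′ end faces the 5′ end of mt-Td.

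The whole tRNA genes are shown because position 9, the anticodon and the ends are what the results turn on. They are written 5′ to 3′ on the tRNA's own strand, with base 9 and the 3 anticodon bases in capitals, and all letters are those of the GRCm38 reference.
mt-Ts1: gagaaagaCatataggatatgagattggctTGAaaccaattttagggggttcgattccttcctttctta
mt-Td: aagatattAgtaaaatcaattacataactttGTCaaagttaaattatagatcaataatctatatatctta
mt-Tk: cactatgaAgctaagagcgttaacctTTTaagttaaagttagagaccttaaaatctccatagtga
mt-Ts1 (ENSMUSG00000064352.1) covers 69 nt from 6870 to 6938 on the reverse strand and has a cytidine at base 9. mt-Td (ENSMUSG00000064353.1) covers 70 nt from 6942 to 7011 on the forward strand, and mt-Tk (ENSMUSG00000064355.1) covers 65 nt from 7700 to 7764 on the forward strand. Both have an adenosine at base 9. The GC content is 37.7% in mt-Ts1, 17.1% in mt-Td and 33.8% in mt-Tk.

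The stretches where the forward-strand tRNAs meet the next reading frame are shown because the depth around these tRNAs changed most sharply there. Each line holds the last 12 bases of the tRNA, then the 1-nt spacer and the start codon in capitals, then the next bases of the mRNA.
mt-Td to mt-Co2: ctatatatcttaTATGgcctaccca
mt-Tk to mt-Atp8: tctccatagtgaTATGccacaacta
The first stretch lies at 7000 to 7024 and the other at 7753 to 7777. On the other side, mt-Tk starts after a spacer of 3 nt behind mt-Co2 (7013 to 7696). mt-Ts1 and mt-Td are 3 nt apart on opposite strands, and mt-Ts1 overlaps mt-Co1 (5328 to 6872) by 3 nt.

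Summed base depth on chrM ran from 3156761 to 4337052 over the wild-type libraries and from 5461367 to 10923311 over the mutant ones, which were all deeper, and normalized values are needed to compare levels. The deposited depth never passed 8000 over both strands, far above the 339 reached in or next to these 3 tRNAs. Its highest value was 7997 to 8000 in the mutant libraries and 7436 to 7756 in the wild-type ones. Whether a depth limit lowered the summed depth, on which shares of chrM depth and scaling by library totals rest, was not tested. Mrpp3 is a nuclear gene and the files used here cover chrM, so neither the genotype of a library nor islet and other cell type markers could be checked. In bulk islet RNA, fewer cells of a type and less RNA per cell cannot be told apart. Intervals on single shares below cover counting error only, because reads amplified from 1 molecule are not separate observations.

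The serine tRNA was of middling abundance among the mitochondrial tRNAs, and the aspartate and lysine tRNAs were among the lowest. Mean depth over mt-Ts1 was 101, 58.4 and 47.5 bases read in wild-type replicates 1 to 3 and 158, 56.2 and 58.8 in mutant replicates 1 to 3. Mean depth over mt-Td was 8.77, 7.77 and 2.19 in wild-type islets and 6.64, 6.76 and 13.0 in mutant islets. For mt-Tk it was 5.0, 6.0 and 6.08 in wild-type islets and 20.3, 6.03 and 6.65 in mutant islets. The groups overlapped in all 3 tRNAs, and mutant replicate 1, the deepest library, stood highest for mt-Ts1 and mt-Tk.

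Normalized depth is the mean depth per base divided by a library factor (TMM) set on all mitochondrial genes, so it is a level relative to other mitochondrial RNA. mt-Ts1 had a normalized depth of 98.1, 82.3 and 72.4 in wild-type islets and 98.5, 64.6 and 51.8 in mutant islets, group means of 84.3 ± 13.0 and 71.6 ± 24.1 (SD, n = 3). It ranked 13 of 22 by its mean over all libraries, below the isoleucine tRNA mt-Ti (127) in 6 of 6 libraries. The next tRNA down, the proline tRNA mt-Tp (48.7), overlapped it. mt-Tk (rank 20) had 4.87, 8.45 and 9.25 in wild-type islets and 12.7, 6.93 and 5.86 in mutant islets. It lay below the tryptophan tRNA mt-Tw (14.8) in 5 libraries. mt-Td (rank 21) had 8.54, 10.9 and 3.33 in wild-type islets and 4.15, 7.76 and 11.5 in mutant islets, and its range overlapped those of mt-Tk above it and of the phenylalanine tRNA mt-Tf (5.0) below it. Only mt-Tf, at rank 22, was lower.

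**Figure D1:**
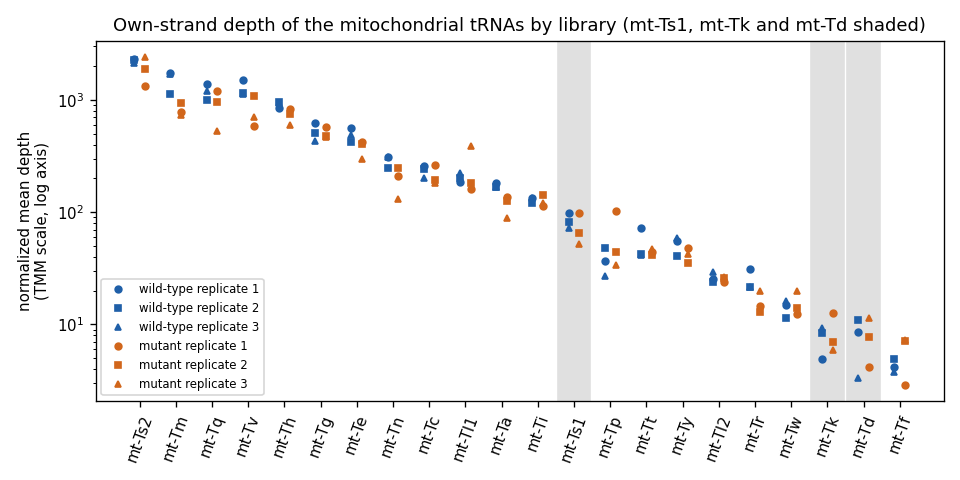
Normalized mean depth on the tRNA's own strand (TMM scale, log axis) of the 22 mitochondrial tRNAs, ordered by their mean over 6 libraries; each point is 1 library, blue for wild type and orange for mutant, and grey bands mark mt-Ts1, mt-Tk and mt-Td. mt-Ts1 lies in the middle of the order, while mt-Tk and mt-Td stand at ranks 20 and 21 with groups that overlap.

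No difference in abundance between the genotypes passed the test in any of the 3 tRNAs. For mt-Ts1 the log2 fold change, mutant over wild type, was -0.23 (SE 0.26, 95% interval -0.76 to 0.30, edgeR quasi-likelihood test, adjusted p = 0.530). Of the 34 genes with a mean depth of at least 10 in that fit, 2 passed (5.88%). Without mutant replicate 1, the library with the highest normalized depth among the mutant ones, the log2 fold change of mt-Ts1 was -0.56 and passed (edgeR adjusted p = 0.0460). How many genes passed varied widely with the library left out, so this call alone does not set mt-Ts1 apart. The change of mt-Ts1 relative to the median of all genes was -0.19 with TMM and -0.23 with scaling by library totals, a scaling that shifted the median itself by -0.40.

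mt-Td and mt-Tk fell short of the depth minimum and were tested only in the fit without it, in which 6 of 37 genes passed (16.2%) and the median of all genes moved by 0.11. There the log2 fold change was 0.06 for mt-Td (SE 0.46, 95% interval -0.93 to 1.05, edgeR adjusted p = 0.903) and 0.43 for mt-Tk (SE 0.39, 95% interval -0.41 to 1.26, edgeR adjusted p = 0.476). Both intervals include changes of more than 0.9 on the log2 scale, so these depths leave sizeable changes undetectable. The signs rest on single libraries and on the scaling. mt-Td was at -0.36 without mutant replicate 3, at -0.26 without wild-type replicate 3 and at -0.45 with scaling by library totals. mt-Tk was at -0.014 without mutant replicate 1 and at -0.10 with library totals.

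As a share of all chrM base depth, mt-Ts1 took 0.160%, 0.116% and 0.104% in wild-type islets and 0.0997%, 0.0710% and 0.0684% in mutant islets. Every mutant library lay below every wild-type library (exact two-sided permutation p = 0.1, the smallest that 3 against 3 allow; adjusted over 12 single values, 0.75). This share falls when any other RNA on chrM takes more, and summed forward-strand depth was 5026986 to 10302401 in mutant islets against 2764211 to 3747204 in wild-type islets. The part of that in the share was not tested. Scaling by library totals, which uses the same summed depth, shifted the median log2 fold change over 34 genes by -0.40. How many other genes separated in this way was not counted, so the separation is not shown to be particular to mt-Ts1. The shares of mt-Td and mt-Tk overlapped (exact permutation p = 0.7 and 0.5).

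The tRNAs as a class and the neighbouring mRNAs give the setting. Of the 19 tRNAs above the minimum, 0 rose and 1 (mt-Tm, the methionine tRNA) fell, with a median log2 fold change of -0.27 against -0.03 over all genes. The call of mt-Tm was lost without wild-type replicate 1 or 3. Of the 8 reverse-strand tRNAs, which include mt-Ts1, 0 passed, with a median of -0.34. mt-Co1, whose end overlaps the 3′ end of mt-Ts1 on the other strand, had a normalized depth of 50.3 ± 5.56 in wild-type islets and 85.4 ± 27.9 in mutant islets (SD, n = 3, log2 0.78, SE 0.26, edgeR adjusted p = 0.0606). In the fit without a minimum mt-Co1 passed (log2 0.88, edgeR adjusted p = 0.0314). mt-Co2 (104 ± 9.73 and 129 ± 36.5, log2 0.32, edgeR adjusted p = 0.387) and mt-Atp8 (63.7 ± 1.35 and 65.5 ± 10.8, log2 0.02, edgeR adjusted p = 0.933) did not pass.

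Across the 6 libraries, the genes whose normalized depth moved most like mt-Ts1 were the cysteine tRNA mt-Tc and the glutamate tRNA mt-Te. Their root mean square differences from it on the log2(depth + 1) scale, each gene centred on its mean, were 0.132 and 0.202, where the median of 33 genes was 0.425. mt-Tk was closest to mt-Co2 (0.219) and mt-Nd6 (0.233), with a median of 0.455 over 34 genes. mt-Td was closest to mt-Ts2 (0.473) and mt-Nd3 (0.514), against a median of 0.720. A gene with no change across libraries would differ by 0.326 from mt-Ts1, by 0.398 from mt-Tk and by 0.580 from mt-Td. The genes closest to mt-Td were thus only a little nearer to it than such a flat gene. These distances share the same 6 libraries and their depths, and they are a description only.

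Along the tRNA, mt-Ts1 was read mostly from its 5′ end, while mt-Td and mt-Tk were not. Depth over mt-Ts1 reached its maximum of 190, 114 and 98 in wild-type islets and 307, 109 and 123 in mutant islets within bases 4 to 17. Base 9 stood at 96.4% to 100% of that maximum in all libraries. Depth then came down in steps. From base 21 to base 22 it fell by 42, 25 and 24 bases read in wild-type islets and 49, 25 and 38 in mutant islets, and from base 26 to base 27, before the anticodon, it fell by 27, 17 and 16 and by 56, 24 and 20. The fall after base 21 was the largest in 5 libraries, and the fall after base 26 was the largest in mutant replicate 1.

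By base 35, just 3′ of the anticodon, depth was 48.4%, 42.1% and 34.7% of the maximum in wild-type islets and 43.0%, 39.4% and 33.3% in mutant islets. The groups overlapped (exact permutation p = 0.5). At the last base it was 0, 3 and 1 in wild-type islets and 8, 7 and 0 in mutant islets, so few reads reached the annotated 3′ end. The mean depth of bases 1 to 35 over that of the remaining bases was 3.62, 3.74 and 4.53 in wild-type islets and 4.04, 3.97 and 4.65 in mutant islets. With both groups together this ratio was 4.01, the highest of the 22 tRNAs, followed by 2.79 in mt-Tl2. The groups overlapped, and the difference between genotypes did not pass (log2 0.10, SE 0.23, 95% interval -0.42 to 0.62, edgeR adjusted p = 0.791), in a fit in which 2 of 19 tRNAs passed (10.5%).

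The same ratio was 0.607, 0.929 and 1.35 in wild-type islets and 1.03, 0.923 and 0.622 in mutant islets for mt-Td, and 0.641, 1.03 and 0.771 against 0.894, 0.959 and 0.739 for mt-Tk. The ratio was below 1 in 4 libraries for mt-Td and in 5 for mt-Tk, with 1.35 (mt-Td, wild-type replicate 3) as the highest, and the groups overlapped. In the fit without a depth minimum, where 2 of 22 tRNAs passed (9.09%), the log2 difference was -0.08 for mt-Td (SE 0.61, edgeR adjusted p = 0.933) and 0.12 for mt-Tk (SE 0.57, edgeR adjusted p = 0.921).

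**Figure D2:**
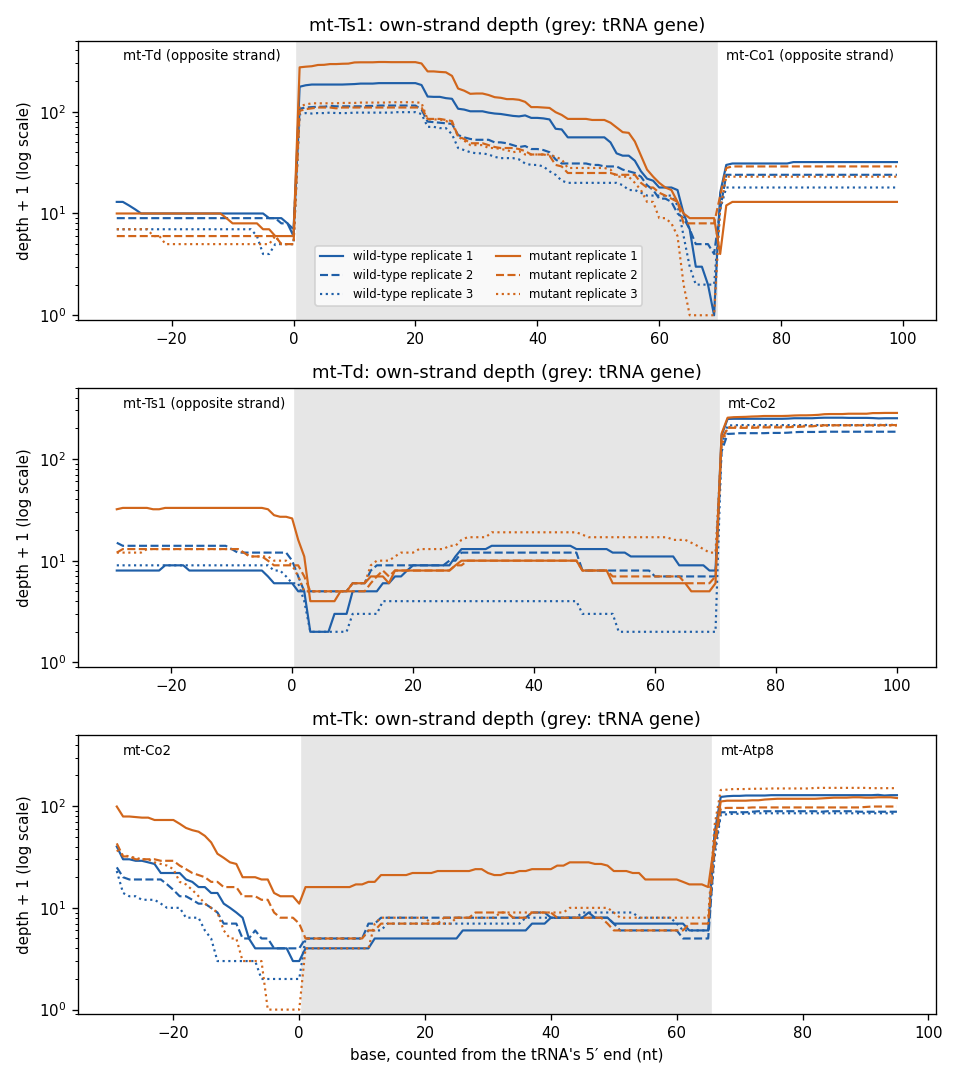
Own-strand depth (bases read plus 1, log axis) along mt-Ts1, mt-Td and mt-Tk with 30 nt on each side, by base counted from the 5′ end of the tRNA (nt); each line is 1 library, blue for wild type and orange for mutant, and grey marks the tRNA gene. mt-Ts1 rises at base 1 and comes down in steps toward its 3′ end in all libraries, while mt-Td and mt-Tk stay low and depth rises just after their last base.

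At the 5′ end, mt-Ts1 stood out sharply from the RNA before it. Depth was 5, 6 and 4 on the base before the tRNA in wild-type islets and 5, 4 and 4 in mutant islets, against 175, 106 and 93 and against 272, 101 and 112 on base 1. No more than 2.86%, 5.66% and 4.30% of the reads on base 1 in wild-type islets, and 1.84%, 3.96% and 3.57% in mutant islets, can therefore have crossed this end (exact permutation p = 0.4). The 10 nt upstream held 0.0442, 0.0686 and 0.0470 of the depth of bases 1 to 10 in wild-type islets and 0.0208, 0.0438 and 0.0344 in mutant islets.

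Each mutant ratio lay below each wild-type ratio, narrowly so for wild-type replicate 1 and mutant replicate 2. The difference did not pass (log2 -0.78, SE 0.41, 95% interval -1.77 to 0.21, edgeR adjusted p = 0.856), and it was -0.36 without mutant replicate 1 and -0.52 without wild-type replicate 2. In this fit 0 of 17 tRNAs passed (0%), and 0 had an unadjusted p under 0.05. The upstream window held 4.1 to 8.1 bases read per position, which limits the precision.

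At the 5′ end of mt-Td the order was the opposite, with more depth on the 10 nt before the tRNA than on its bases 1 to 10 in all 6 libraries. RNA on the forward strand opposite mt-Ts1, following mt-Co1, had a depth of 7.2, 12.5 and 8.0 in wild-type islets and 31.9, 11.7 and 11.7 in mutant islets. It ran down to 1, 4 and 1 and to 3, 4 and 4 at base 3 of mt-Td. Over the whole of mt-Td, wild-type replicate 1 (mean depth 8.77) and mutant replicate 3 (13.0) exceeded their own upstream depth. The ratio of the 10 nt upstream to bases 1 to 10 was 2.77, 2.51 and 4.29 in wild-type islets and 5.57, 2.04 and 2.28 in mutant islets, so the groups overlapped (log2 0.20, SE 0.81, 95% interval -1.73 to 2.13, edgeR adjusted p = 1). With both groups together it was 3.25, the third highest of the 22 tRNAs.

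mt-Tk lay on the fading end of mt-Co2. The base before it had a depth of 2, 3 and 1 in wild-type islets and 10, 6 and 0 in mutant islets, and its base 1 had 3, 4 and 4 and then 15, 4 and 3. The ratio of the windows was 1.1, 0.9 and 0.325 in wild-type islets and 1, 2.33 and 0.267 in mutant islets. Between the windows the direction thus differed by library, with a rise into the tRNA in wild-type replicate 3 and mutant replicate 3 and a fall in mutant replicate 2. The groups overlapped. From the base before the tRNA to base 1, depth rose in every library except mutant replicate 2, where it fell from 6 to 4. mt-Tk met a minimum of 5 in both windows, at which 0 of 13 tRNAs passed (0%) and 0 had an unadjusted p under 0.05. There its log2 difference was 0.63 (SE 0.89, 95% interval -1.53 to 2.79, edgeR adjusted p = 0.816), or 0.19 without wild-type replicate 3 and 0.96 without wild-type replicate 2, and without mutant replicate 1 it fell below the minimum.

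At the 3′ ends the mRNAs began. On the last base of mt-Td the depth was 7, 6 and 1 in wild-type islets and 5, 6 and 11 in mutant islets. On the spacer base it was 169, 117 and 133 and then 176, 154 and 133, and on the first base of the mt-Co2 start codon it was 246, 175 and 212 and then 253, 201 and 204. Of the rise over these positions, 67.8%, 65.7% and 62.6% took place on the spacer in wild-type islets and 69.0%, 75.9% and 63.2% in mutant islets (65.3% ± 2.63 and 69.4% ± 6.35, SD, n = 3; exact permutation p = 0.4). Most of the rise thus came 1 base before the start codon, directly after the tRNA, in every library.

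The junction of mt-Tk and mt-Atp8 had the same layout with another split. Depth was 5, 4 and 5 on the last base of mt-Tk in wild-type islets and 15, 6 and 7 in mutant islets. It was 53, 35 and 30 and then 43, 38 and 63 on the spacer, and 122, 86 and 81 and then 110, 94 and 143 on the first base of the start codon. Here 41.0%, 37.8% and 32.9% of the rise took place on the spacer in wild-type islets and 29.5%, 36.4% and 41.2% in mutant islets (37.2% ± 4.09 and 35.7% ± 5.88, SD, n = 3; exact permutation p = 0.7). The share at mt-Atp8 was below that at mt-Co2 in each of the 6 libraries.

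**Figure D3:**
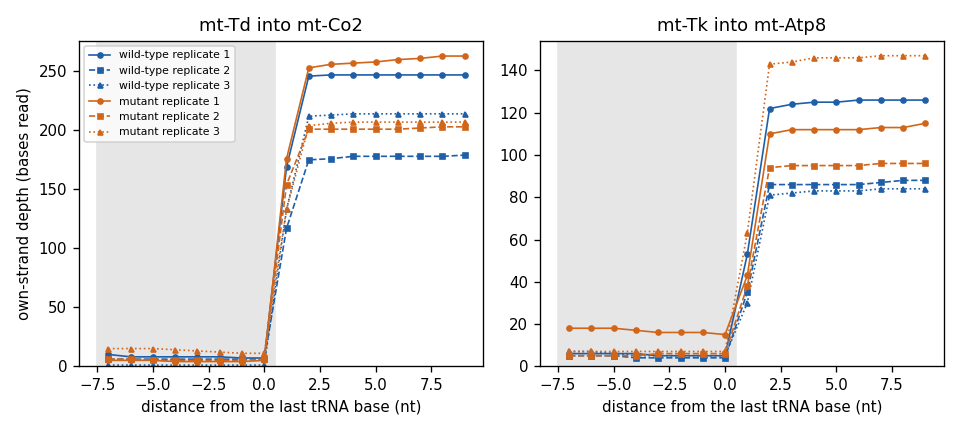
Own-strand depth (bases read) against the distance from the last tRNA base (nt) where mt-Td meets mt-Co2 (left) and mt-Tk meets mt-Atp8 (right); each line is 1 library, blue for wild type and orange for mutant, and grey marks the tRNA. Depth is at most 15 on the last tRNA base and at least 81 on the first base of the start codon, 2 positions on, with the intermediate value on the spacer.

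The depth of the last tRNA base also caps the reads that can join a tRNA to its mRNA. At mt-Td this cap was 2.85%, 3.43% and 0.472% of the depth at the start codon in wild-type islets and 1.98%, 2.99% and 5.39% in mutant islets (exact permutation p = 0.5). At mt-Tk it was 4.10%, 4.65% and 6.17% in wild-type islets and 13.6%, 6.38% and 4.90% in mutant islets (exact permutation p = 0.2), and mutant replicate 1 stood apart. The groups overlapped at both, and the adjusted p was at least 0.75 for all 12 single values.

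As window ratios, the 10 nt downstream of mt-Td held 28.5, 28.6 and 206 times the depth of its last 10 bases in wild-type islets and 54.6, 35.8 and 14.4 times in mutant islets. For mt-Tk these ratios were 21.1, 18.1 and 13.2 and then 6.22, 16.6 and 19.7, and for mt-Ts1 3.26, 2.86 and 2.55 and then 0.973, 2.76 and 7.17. The groups overlapped in each. The log2 difference was -0.66 for mt-Td (SE 0.59, edgeR adjusted p = 0.533), -0.54 for mt-Tk (SE 0.59, edgeR adjusted p = 0.623) and -0.24 for mt-Ts1 (SE 0.68, edgeR adjusted p = 0.903), in a fit in which 1 of 22 tRNAs passed (4.55%). With both groups together, mt-Td ranked 2 (32.2), mt-Tk 5 (13.4) and mt-Ts1 9 (2.68) of 22. Without mutant replicate 1 the sign turned for mt-Tk (0.13) and for mt-Ts1 (0.36), and mt-Td was at -1.03. Without mutant replicate 3 mt-Td was at -0.029, and without wild-type replicate 3 at -0.16.

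Mismatches, the bases read that differ from the reference, were concentrated on 1 base of the serine tRNA, base 29. This is the cytidine at 6910, the first base of the anticodon loop and position 32 in the standard tRNA numbering. A cytidine there is known to carry a methyl group (3-methylcytidine) in the mitochondrial serine (UCN codons) and threonine tRNAs, placed by METTL8. The base was singled out after its values were seen. Mismatches made up 54.0% (54 of 100), 37.7% (20 of 53) and 43.6% (17 of 39) of the bases read in wild-type replicates 1 to 3. In mutant replicates 1 to 3 they made up 51.7% (77 of 149), 43.8% (21 of 48) and 43.5% (20 of 46).

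The exact (Clopper-Pearson) 95% intervals of these shares ran from 24.8% to 64.0% in wild-type islets and from 28.9% to 59.9% in mutant islets, and the groups overlapped. Group means were 45.1% ± 8.24 and 46.3% ± 4.66 (SD, n = 3). Over all libraries, 209 of 435 bases were mismatched (48.0%, interval 43.3% to 52.9%), and C29T made up 173 of them (82.8%), with bases counted from 1 at the 5′ end. The other 9 cytidines of mt-Ts1 had 7 mismatches in 2329 bases read (0.301%). The other 6 bases of the loop had 0% to 4.05%, the highest being anticodon base 32, where G32C made up 13 of 17 mismatches.

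With depths of 39 to 149, base 29 did not reach 50 in all libraries and was tested at the minimum of 20. No difference between genotypes passed (log2 odds 0.06, SE 0.35, 95% interval -0.66 to 0.79, edgeR adjusted p = 0.924), and 0 of the 55 sites in that fit passed (0%; 2 had an unadjusted p under 0.05). Among all 985 tRNA sites at that depth its mean mismatch, 45.7%, came after base 9 of the asparagine tRNA mt-Tn (73.8%), while the median site had 0.239%. Base 8 of the histidine tRNA mt-Th was close to it (45.5%) and higher in 4 of 6 libraries. Base 29 of the threonine tRNA mt-Tt, also a cytidine 2 bases before its anticodon, came sixth. It had 19.0%, 21.2% and 25% in wild-type islets and 15.1%, 22.2% and 21.4% in mutant islets.

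**Figure D4:**
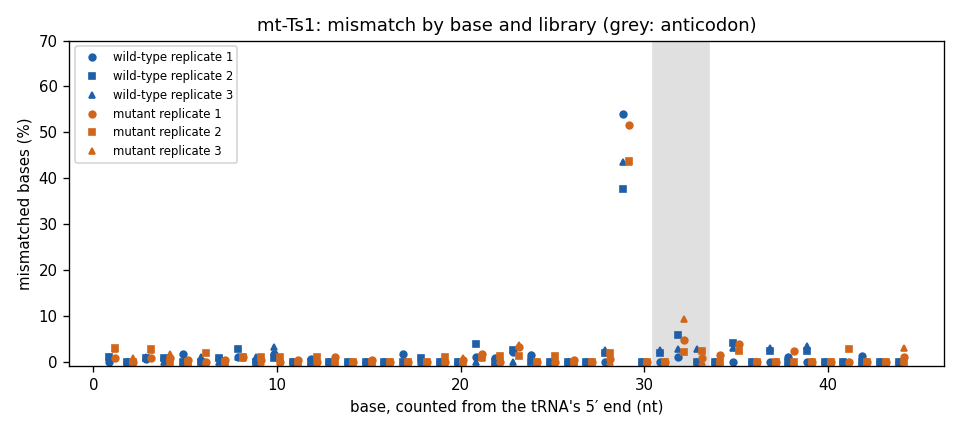
Share of mismatched bases (%) by base of mt-Ts1 counted from the 5′ end (nt); each point is 1 library, blue for wild type and orange for mutant, and grey marks the anticodon. Base 29 lies between 37.7% and 54.0% in the 6 libraries, far above the other bases shown.

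Elsewhere mt-Ts1 was read almost without mismatch. Its bases 1 to 26 reached a depth of 50 in each library, and no base of mt-Td or mt-Tk did. Over these 26 bases the median mismatch was 0.324%, and base 9, a cytidine, had 3 of 919 (0.326%). The 6 bases with a mean of at least 1% were bases 1, 3, 8, 10, 21 and 23, the highest being base 23 with G23A in 17 of 17 mismatches. Of the 36 tRNA sites in that fit 0 passed (0%), and 4 had an unadjusted p under 0.05. One of these was base 10 of mt-Ts1, at 1.61%, 0.893% and 3.09% in wild-type islets and 0%, 0.917% and 0% in mutant islets (log2 odds -2.87, SE 1.04, edgeR adjusted p = 0.329). Those shares rest on 8 mismatched bases in all, and the groups overlapped. The log2 odds were -1.80 without mutant replicate 1 and -5.02 without mutant replicate 2.

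Position 9 of the aspartate and lysine tRNAs, where both have an adenosine, was too thinly covered to compare genotypes. In mt-Td its depth was 2, 4 and 1 in wild-type islets and 4 in each mutant library, which is 23.9% ± 11.02 and 31.1% ± 11.8 of the tRNA's maximum (SD, n = 3; exact permutation p = 0.5). In mt-Tk it was 3, 4 and 4 in wild-type islets and 16, 4 and 3 in mutant islets. Over all libraries 6 of 19 bases were mismatched in mt-Td (31.6%, exact interval 12.6% to 56.6%), 5 of them A9G. In mt-Tk 7 of 34 were mismatched (20.6%, exact interval 8.70% to 37.9%), 6 of them A9G. Both lower limits lie above the upper limit of 0.951% at the cytidine of mt-Ts1, but so do those of 6 neighbouring bases of mt-Td (0.984% to 2.55%), so this does not single out its position 9.

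By library, the mismatched bases at position 9 of mt-Td were 0 of 2, 3 of 4 and 1 of 1 in wild-type islets and 0 of 4, 1 of 4 and 1 of 4 in mutant islets. In mt-Tk they were 2 of 3, 1 of 4 and 0 of 4 in wild-type islets and 2 of 16, 0 of 4 and 2 of 3 in mutant islets. Those neighbouring bases of mt-Td held few mismatches, 2 each at bases 3, 5, 7, 8 and 11 and 3 at base 10, all of them in mutant replicates 1 and 2. In those 2 libraries position 9 of mt-Td had 0 of 4 and 1 of 4 mismatched bases. The part of the neighbouring bases in the position 9 share was not tested.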

How the data were processed

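The submitters' processing notes name STAR, Trim Galore, cutadapt and FastQC, and the build GRCm38.p6; the sources used here give no versions, read length or counting tool. The deposited counts are the A, C, G, T and N read at each chrM position and strand in each of 6 libraries, unscaled, per the file headers. A separate table of position 9 counts was not used here.

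Depth was summed over letters on each gene's strand (GENCODE genes of GRCm38). The edgeR 4.0.16 quasi-likelihood test (R 4.3.3) with Benjamini-Hochberg adjustment (threshold 0.05) was run over all mitochondrial genes, tRNAs or tRNA sites. Gene depth used TMM scaling and a mean of at least 10; ratios within a library used 10-nt windows or bases 1 to 35 against the rest, both with a mean of at least 10; mismatch used a depth of 50 or more in each library and a mean of at least 1%. Standard errors and intervals were derived from the test's p-value. Where a tRNA fell below a minimum, the fit without it, with 10 in either window (for the 5′ end of mt-Tk, 5 in both), or with a depth of 20 was used; the first of these for the 5′ and 3′ stretches and the either-window fits were chosen after depths were seen. Single values had exact two-sided permutation tests. The permutation p-values rest on 3 against 3 libraries alone. The edgeR p-values also draw on a spread pooled over features. In addition, edgeR keeps them no smaller than a test of counting noise alone would give, so they need not follow a feature's own spread between libraries. All pairs of libraries differed in rounded mean depth per gene (chi-square per degree of freedom at least 3.33). Mean depth is not a count of reads, so this value does not set the difference against counting noise.

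The tRNAs, lists and tests were chosen with earlier results of these data known. Named were the 3 tRNAs, mt-Co1, mt-Co2 and mt-Atp8, for each tRNA the 2 genes of most like depth, up to 6 tested sites, and the tRNAs next in order; base 29 of mt-Ts1, mt-Tt, mt-Tl2, base 32, mt-Tm, mt-Th and mt-Tn were added once values had been seen. As alternatives served limma 3.58.1 on log2 ratios with 0.5 added, DESeq2 1.42.0, other scalings, windows and minimums, a replicate block, and leaving out each library.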

Additional observations from a re-analysis of the deposited data

How the results depend on the processing

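Of 251 values for the 3 tRNAs under alternatives, 229 counted as unchanged, 21 reversed and 1 (mt-Ts1 depth without mutant replicate 1) newly passed. The cause was not tested. Of these values 179 came from fits, where 164 kept their direction and their side of the threshold and 14 reversed. The rest were single values with 1 library left out, for which no test was rerun. They counted as unchanged if the difference kept its direction and moved by less than the larger group SD. Of 34 genes 2 passed for depth, against 9 with library totals (1 higher, 8 lower; for mt-Ts1 log2 -0.66), 6 of 37 without a minimum, 4 of 36 by maximum depth and 0 with the replicate block, and 0 (without wild-type replicate 1 or 3) to 11 (without mutant replicate 3) with 1 library left out. For the 5′ against the 3′ stretch 2 passed, 0 with limma, 0 with the replicate block and 0 to 2 without 1 library. For the 5′ end step 0 passed, and 0 to 1 without 1 library. For the 3′ end step with the minimum in both windows, which none of the 3 tRNAs met, 2 of 15 passed, and 1 with 5-nt windows, limma, a mean of at least 5 (21 tested) or the minimum in either window (22 tested), and 0 to 2 without 1 library. For mismatch 0 passed under every alternative run. Same-numbered libraries deviated together only weakly (correlations of their deviations -0.03, -0.25 and 0.23 over 34 genes), which cannot show whether they were paired. The replicate block turned the 5′ step of mt-Td from 0.20 to -0.088, as did 5-nt windows (-0.069), and no other direction among the 3 tRNAs. With library totals mt-Td depth was -0.45 and mt-Tk depth -0.10; DESeq2 gave -0.068 for mt-Td.

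With 1 library left out, log2 values ranged from -0.56 to -0.03 (mt-Ts1 depth), -0.36 to 0.45 (mt-Td depth), -0.014 to 0.64 (mt-Tk depth), -0.38 to 0.19 (mt-Td, 5′ against 3′ stretch), -0.73 to 0.36 (mt-Ts1, 3′ step), -1.03 to -0.029 (mt-Td, 3′ step), -0.90 to 0.13 (mt-Tk, 3′ step), -1.05 to -0.36 (mt-Ts1, 5′ step) and -0.19 to 0.44 (base 29 mismatch). Differences in percentage points ranged from -0.00549 to 0.000463 (mt-Td share of chrM depth), -0.462 to 1.33 (mt-Ts1 base 9 depth), -4.17 to 8.80 (mt-Tk base 9 depth), -6.67 to 0.194 (mt-Ts1 base 35 depth) and -4.32 to 1.53 (mt-Tk spacer share). The low depth of mt-Td and mt-Tk limits every comparison of them.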
